A study of Homo sapiens with 41 samples.

Results

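Elongin A ChIP-seq of DLD1 cells gave a list of 186 peaks, and all of them are described here, of 11244 peaks in the 3 peak lists deposited for Elongin A. DLD1 is a human colon cancer cell line. The cells were wild type, received no siRNA and were fixed with formaldehyde, and the list compares 1 library made with an antibody to Elongin A with 1 input library, so no value below has a replicate error. The labels give the ChIP antibody only by its target. The other lists are CUT&RUN, in which antibody-directed nuclease releases DNA around the bound protein, from fixed wild-type DLD1 cells. One used a goat antibody (2 replicates behind 1 list of 8720 peaks, against goat IgG) and one a mouse antibody (1 sample, 2338 peaks, against mouse IgG). The lists hold no read totals, so the depth behind them is unknown, and peak lists carry no expression values against which the cell type could be checked.

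Elongin A is the large subunit of the Elongin complex, which it forms with Elongin B and Elongin C, and it raises the rate at which RNA polymerase II (RNAPII) moves along DNA in purified systems. Small nuclear RNA (snRNA) genes encode the RNA parts of the spliceosome. Most of them, U1, U2, U4, U5, U11 and U12 among them, are short genes without introns that RNAPII transcribes, and their transcripts end at a 3′ box just downstream of the gene in place of a poly(A) signal. U6 and U6atac are transcribed by RNA polymerase III instead.

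At the snRNA genes the ChIP-seq summits lay past the gene, so the bases just downstream of the gene end are shown. They are read in the direction of transcription from GRCh37, which has the coordinates of hg19, the build of the peak lists. Letters of the 3′ box core, AAANNNAGA, are in capitals where the 60 bases hold them on the transcribed strand. The first 5 hold them and the last, downstream of the gene with the strongest peak, does not.
RNU1-1 (U1, minus strand, chr1:16840557-16840616): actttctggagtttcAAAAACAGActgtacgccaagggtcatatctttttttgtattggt
RNU1-2 (U1, plus strand, chr1:17222639-17222698): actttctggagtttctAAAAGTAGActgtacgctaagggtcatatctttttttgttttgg
RNU5E-1 (U5, plus strand, chr1:11968329-11968388): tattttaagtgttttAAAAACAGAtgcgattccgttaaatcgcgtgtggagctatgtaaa
RNU5B-1 (U5, plus strand, chr15:65597131-65597190): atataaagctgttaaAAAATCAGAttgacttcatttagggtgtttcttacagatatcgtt
RNU5D-1 (U5, minus strand, chr1:45196667-45196726): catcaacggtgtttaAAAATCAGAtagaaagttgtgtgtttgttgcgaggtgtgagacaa
RNU2-2P (U2, minus strand, chr11:62609031-62609090): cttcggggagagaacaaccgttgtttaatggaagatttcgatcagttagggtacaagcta

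At coding promoters many peaks shared a different sequence, a 9-letter word GAGCGCCGA and a 5-letter word ATCGA. Both were noticed in the windows around the summits and chosen after those windows had been read. The 7 promoters where the 5-letter word followed the 9-letter word within 20 bases on the same strand are shown first, in order of fold enrichment, as 30 bases of GRCh37 with both words in capitals. The last 4 are those of highest fold enrichment that held the 5-letter word within 50 bp of the summit without the 9-letter word.
HMGXB4 (minus strand, chr22:35653379-35653408): caaGAGCGCCGAgcgcATCGAataaaactc
KDM8 (minus strand, chr16:27214776-27214805): gagGAGCGCCGAgtgATCGAtgccgtggcc
VPS13D (minus strand, chr1:12290007-12290036): gccGAGCGCCGAgttATCGAggaggcgccc
C2CD5 (minus strand, chr12:22697461-22697490): gcaGAGCGCCGAacgATCGAtgctttcttc
RAD54L (plus strand, chr1:46713331-46713360): cgcGAGCGCCGAactcATCGAacgcagcca
LACTB (minus strand, chr15:63413909-63413938): cccGAGCGCCGAtcgcATCGAgcccttctt
PLA2G15 (minus strand, chr16:68279066-68279095): gctGAGCGCCGAgcgcATCGAtggATCGAg
FAN1 (minus strand, chr15:31195990-31196019): gtggaggctcgagtgATCGAtctcctttcc
DCTN5 and PALB2 (minus strand, chr16:23652730-23652759): ggcccactgggactcATCGAcagcgcggct
DPH1 (minus strand, chr17:1933383-1933412): agcgcagacattgcgATCGAtcgccgatcg
SURF6 (minus strand, chr9:136203086-136203115): agtcaggcttggctaATCGAgcgcgcgggc

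Promoters of protein-coding genes were the largest class of ChIP-seq peaks, and the 2 highest values lay at snRNA genes. Fold enrichment, the read pileup at the summit over the local input background as the authors' peak caller gave it, ran from 1.19 to 47.1 with a median of 9.99. By the peak centre, 105 of 186 peaks (56.5%, Wilson 95% interval 49.3 to 63.4%, counting error only, as for all intervals here) lay from 1000 bp upstream to 100 bp downstream of an annotated transcription start site (TSS). Another 35 lay at a transcript end, 23 in a gene body and 23 between genes. The gene-end count fell to 11 with a promoter window of 500 bp either side, and the intergenic count to 11 at a fold enrichment of 5 or more. Each peak was then put in 1 class, with snRNA, histone, small nucleolar RNA (snoRNA) and other small RNA genes within 500 bp taken first. This gave 86 coding promoter peaks (46.2%, 39.2 to 53.4%), 22 snRNA peaks (11.8%, 7.94 to 17.3%), 8 histone peaks, 4 snoRNA peaks and 3 at other small RNA genes. The remaining classes were 7 promoters of other genes, 11 coding and 4 other gene ends, 7 coding and 11 other gene bodies, and 23 intergenic peaks. The median fold enrichment was 19.1 for the 4 snoRNA peaks, 16.1 for snRNA, 13.2 for coding promoters and between 4.06 and 7.27 for every other class. The classes overlapped widely in range, with snRNA peaks from 6.39 to 47.1 and coding promoter peaks from 5.05 to 31.6. Of the 20 peaks with the highest fold enrichment, 8 were snRNA, 1 was snoRNA, 10 were coding promoter peaks and 1 lay in the long noncoding RNA gene LINC00910.

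**Figure D1:**
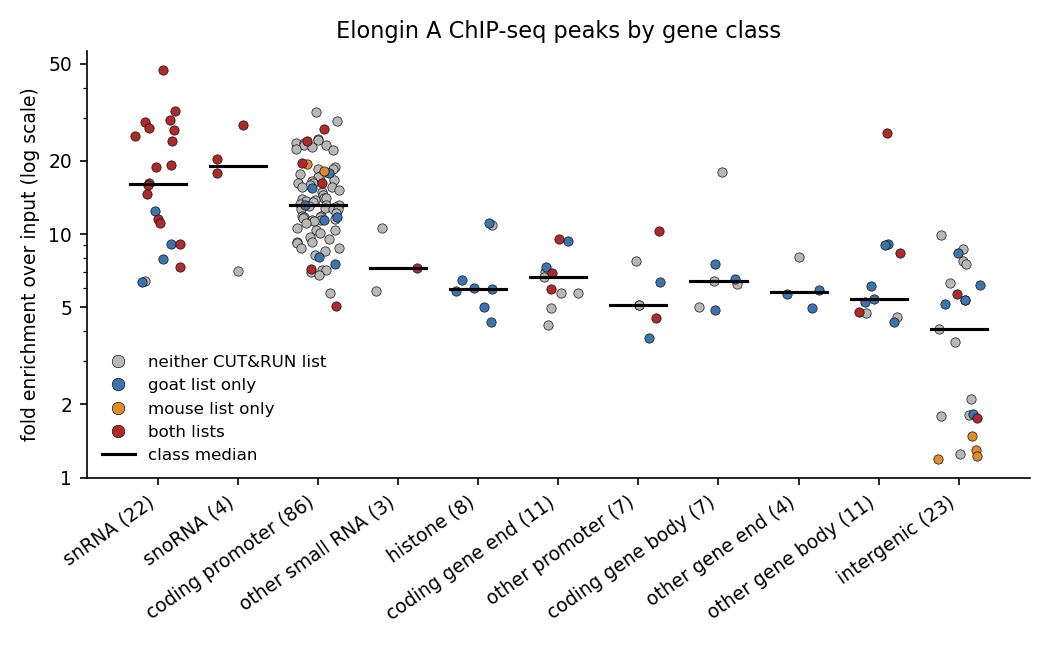
Fold enrichment over input (log scale) of each of the 186 ChIP-seq peaks by gene class, with the number of peaks of each class in parentheses. Points are peaks, coloured by the CUT&RUN lists that overlap them, and bars are class medians. The snRNA and snoRNA columns are mostly in both lists, and the coding promoter column, with a median of 13.2, is mostly in neither.

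Peaks at snRNA genes were mostly held by the CUT&RUN lists as well, and peaks at coding promoters mostly were not. An overlap of 1 bp was counted. Over the whole list, 41.4% of peaks overlapped the goat list, 23.1% the mouse list and 19.9% both. Of the 22 snRNA peaks, 21 overlapped the goat list (95.5%, 78.2 to 99.2%), 17 the mouse list (77.3%, 56.6 to 89.9%) and the same 17 both. Of the 86 coding promoter peaks, 13 overlapped the goat list (15.1%, 9.05 to 24.2%), 8 the mouse list (9.30%, 4.79 to 17.3%) and 6 both (6.98%, 3.24 to 14.4%), which left 71 in neither list. Both intervals for the share in both lists lie away from 19.9%, one above and one below it. The snRNA class made up 17 of the 37 peaks found in both lists (45.9%), although it held 11.8% of the ChIP-seq list. The lists share the cell line, and no peak of a list is a replicate of another, so these shares are a description and were not tested. A high fold enrichment did not by itself go with overlap, because 8 of the 11 peaks among the top 20 that were neither snRNA nor snoRNA were in neither list.

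**Figure D2:**
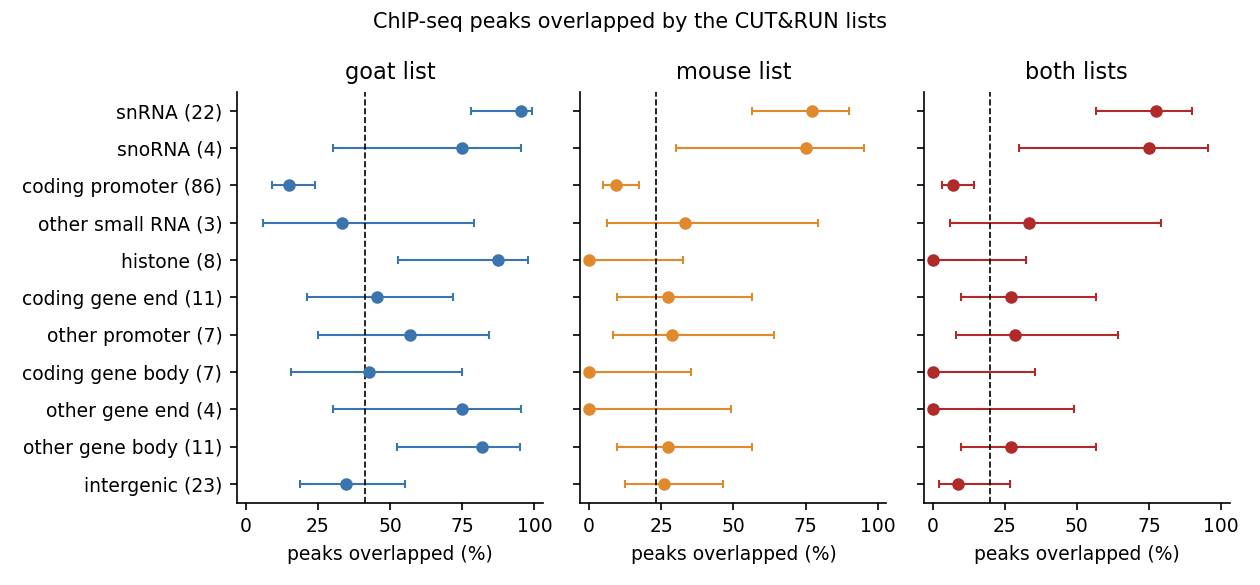
Share of the ChIP-seq peaks of each class that overlapped the goat list, the mouse list or both by 1 bp or more. Points are shares, bars are Wilson 95% intervals (counting error only), numbers of peaks are in parentheses, and dashed lines mark the share over all 186 peaks (41.4, 23.1 and 19.9%). Coding promoters lie below the line in all 3 panels and snRNA genes above it.

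The snRNA peaks covered the U1, U2, U4 and U5 families and U4atac. The strongest of the list lay at RNU2-2P, a U2 gene, with a fold enrichment of 47.1, and overlapped a goat peak with a fold enrichment of 9.10 and a mouse peak with 8.72. RNU4-2, a U4 gene, followed at 32.1, and its neighbour RNU4-1 had 14.7. A single goat peak with a fold enrichment of 14.7 overlapped both U4 peaks. The mouse list held 5.97 at RNU4-2 and 7.85 at RNU4-1.

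U1 is the snRNA that pairs with the 5′ splice site. RNU1-1 had a fold enrichment of 29.3 and RNU1-2 had 27.2. The variant U1 genes RNVU1-6, RNVU1-18 and RNVU1-14 had 25.2, 19.2 and 16.0, and 4 loci named as U1 pseudogenes had 11.6 (RNU1-120P), 11.2 (RNU1-60P), 6.42 (RNU1-59P) and 6.39 (RNU1-122P). These 5 U1 genes not named as pseudogenes were in both CUT&RUN lists, whereas RNU1-59P was in neither and RNU1-122P in the goat list alone. In all, 9 of 140 annotated U1 genes and pseudogenes had a ChIP-seq peak within 500 bp, and 5 of the 24 not named as pseudogenes.

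U5 lies at the centre of the spliceosome, and 8 of 31 annotated U5 genes and pseudogenes had a ChIP-seq peak within 500 bp. All 5 annotated U5 genes not named as pseudogenes had a peak, and all 5 were in both CUT&RUN lists. Fold enrichment was 28.8 at RNU5A-1, 26.8 at RNU5E-1, 24.2 at RNU5B-1, 18.9 at RNU5D-1 and 9.14 at RNU5F-1. The other 3 U5 peaks lay at RNU5E-4P, RNU5E-6P and RNU5A-8P, with 9.09, 7.94 and 7.32. The last had one of the stronger CUT&RUN values, 20.3 in the goat list, where it ranked 7 of 8720 by fold enrichment. RNU2-63P, a U2 locus, had 16.2 and was in both lists. Of annotated genes and pseudogenes, 2 of 70 for U2 and 2 of 89 for U4 had a ChIP-seq peak within 500 bp. RNU2-64P had a peak within 500 bp in both CUT&RUN lists but none in the ChIP-seq list. For none of the U1, U2, U4 and U5 counts was a share of all genes within 500 bp computed. RNU4ATAC, which encodes the U4 counterpart of the minor spliceosome, had 12.5 and was in the goat list alone.

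Overlapping CUT&RUN peaks at snRNA genes had a higher median fold enrichment than their own lists, more so in the goat list. The 21 snRNA peaks in the goat list overlapped 19 distinct goat peaks, since RNU4-1 and RNU4-2 shared one and RNU5E-1 and RNU5E-4P another. These 19 had a median fold enrichment of 12.4, against 4.32 over the goat list, and 12 of the 19 were within the top 1% of that list. The mouse peaks at 17 snRNA genes had a median of 6.26, against 4.36 over the mouse list, and 5 of the 17 were within its top 1%. Those at RNU5D-1 (3.79) and RNU5F-1 (3.35) lay below the median of the mouse list. By contrast, the goat peaks at the 13 overlapping coding promoter peaks had a median of 4.91 and 2 of the 13 were within the top 1%. The mouse peaks at 8 coding promoter peaks had a median of 4.77 and 1 of the 8 was within the top 1%. Fold enrichment was taken against a different control in each list, so values were compared within a list only.

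In 21 of 22 snRNA peaks the summit lay downstream of the gene end, at a median of 72.0 bp past it (quartiles 54.8 and 106 bp, range -45 to 215 bp). Measured from the gene start, the summits lay 118 to 331 bp downstream. The peaks began between 62 bp upstream and 78 bp downstream of the gene start, and extended 138 to 779 bp past the gene end. RNVU1-14 was the exception, with its summit inside the gene, 45 bp before its end. At RNU2-2P the peak reached 779 bp past the gene, and at RNU1-2 it reached 711 bp. The 3′ box letters shown above were present in the 60 bases downstream of 8 of the 22 genes (36.4%, 19.7 to 57.0%), against 18.8% of all 1914 annotated snRNA genes and 2.84% of 20136 coding genes. In 6 of the 8 they began 16 bases past the gene. The annotated snRNA genes include U6, which has 1321 genes and pseudogenes and is transcribed by RNA polymerase III. The 18.8% is therefore not a share of RNAPII-transcribed snRNA genes alone. The letters are 1 strict form of a variable element, they were chosen with the summit positions known, and U1 and U5 loci share ancestry, so the windows are not independent.

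**Figure D3:**
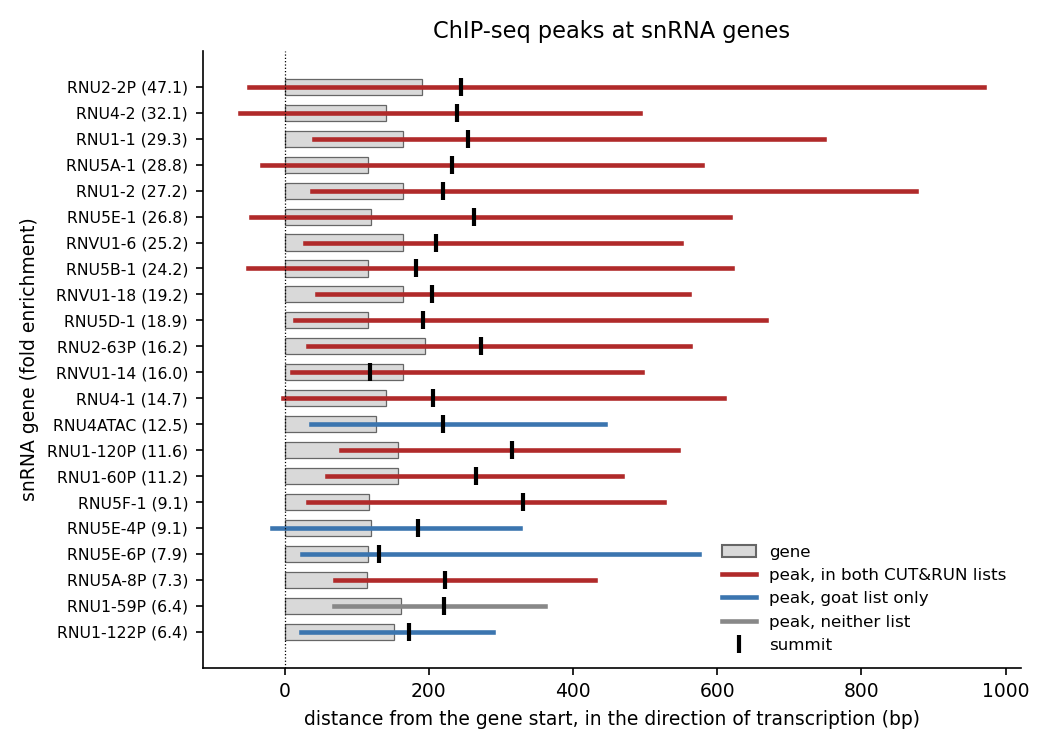
Extent of the 22 snRNA peaks along their genes, aligned at the gene start and drawn in the direction of transcription in bp, in order of fold enrichment (in parentheses). Grey boxes are genes, lines are peaks coloured by CUT&RUN overlap, and black ticks are summits. All summits but that of RNVU1-14 lie to the right of the gene box.

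Further peaks in other classes lay at sequence relatives of snRNA genes. The peak at the TAF12 promoter (fold enrichment 24.1) contained a stretch 89.4% identical over 132 bases to the U11 sequence annotated as RNU11-3P, with the summit 32 bp past the match, and RefSeq (GRCh38 annotation, used for names only) places RNU11 beside TAF12. The peak at the POLDIP3 promoter (16.2) held a match of 94.6% over 148 bases to RNU12-2P, a U12 sequence, with the summit 110 bp past it, and RefSeq places RNU12 beside POLDIP3. U11 and U12 belong to the minor spliceosome. In LINC00910, a peak with a fold enrichment of 8.39 matched U2 at 79.9% identity over 159 bases. These 3 peaks were in both CUT&RUN lists, and the goat list held 16.9 at TAF12 (rank 11) and 15.05 at POLDIP3 (rank 15). Counted as snRNA, a choice made after the data had been seen, they raised that class to 25 peaks, of which 20 were in both lists (interval 60.9 to 91.1%), and left 4 of 84 coding promoter peaks in both (4.76%, 1.87 to 11.6%). A second LINC00910 peak, with 26.1 and also in both lists, matched none of the small RNA sequences searched, and neither did a noncoding promoter peak on chromosome 1 (10.3, with 15.8 in the goat list and 6.30 in the mouse list).

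The RNA polymerase III genes examined had no ChIP-seq peak, but apart from the U6 pseudogenes they are few. A count of 0 among so few genes does not set them apart, as 0.541% of coding genes held a promoter peak. That share counts peak centres in promoter windows, not peaks within 500 bp of a gene, so it is only a rough guide. No ChIP-seq peak lay within 500 bp of RNU6-1, RNU6-2, RNU6-7, RNU6-8 or RNU6-9, of RNU6ATAC, of the 4 Y RNA genes or the 4 vault RNA genes examined, of the 2 genes found for 7SK, RMRP and RPPH1 RNA, or of any of 1321 annotated U6 genes and pseudogenes. The goat list held 1 of the 5 U6 genes, 1 Y RNA gene and 2 vault RNA genes. U7, the RNAPII-transcribed snRNA that takes part in histone mRNA processing, also had no ChIP-seq peak at any of 179 annotated genes and pseudogenes, while RNU7-1 had a goat peak.

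The 4 snoRNA peaks lay at genes with their own promoters, which are transcribed as snRNA genes are. A U3 gene on chromosome 17 had a fold enrichment of 28.2, SNORD3B-2, another U3 gene, had 20.4, and SNORD118, which encodes U8, had 17.9. These 3 were in both CUT&RUN lists. SNORD13, which encodes U13, had 7.03 and was in neither. U3, U8 and U13 take part in ribosomal RNA processing. Summits lay 154 bp past the end of the U3 gene, 76 bp past that of SNORD118 and 193 bp past that of SNORD13. At SNORD3B-2 the summit lay inside the annotated gene but 105 bp past the end of its U3 match.

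Coding promoter peaks were narrow and sat just upstream of the TSS. Their median width was 346 bp, against 526 bp for snRNA peaks. The summit lay upstream of the nearest coding TSS in 73 of 86 peaks, at a median of -46.0 bp (quartiles -99.0 and -17.2 bp), and within 100 bp of it in 64. The class takes peak centres from 1000 bp upstream to only 100 bp downstream of a TSS, which limits how far downstream a summit can lie. With 500 bp either side the class numbered 87 peaks, and summit positions were not recomputed for it. Coding TSSs on both strands were within 1000 bp of the summit in 11. The farthest, at SOS1, lay at -3394 bp from the nearest TSS of a basic transcript and was assigned by a transcript outside the basic set.

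**Figure D4:**
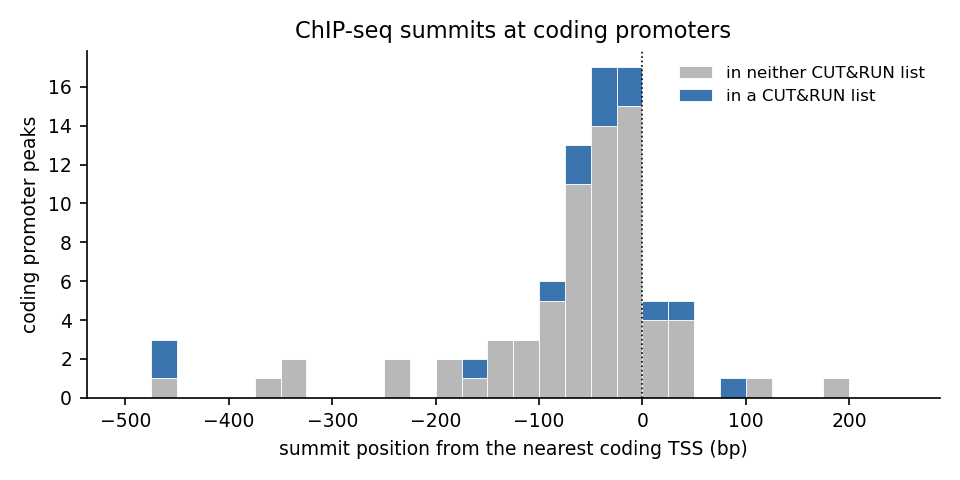
Number of coding promoter summits in 25 bp bins from -500 to 250 bp around the nearest coding TSS (negative values are upstream), stacked by overlap with a CUT&RUN list. Bars show 84 of the 86 peaks, and most of the summits lie in the bins just left of the TSS at 0.

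The strongest coding promoter peak lay between YARS1, which encodes tyrosyl-tRNA synthetase, and S100PBP, with a fold enrichment of 31.6. FAN1, a DNA repair nuclease gene, had 29.3, HMGXB4 had 26.9, PSMD3, a proteasome subunit gene, had 24.7, and the shared promoter of PALB2, a homologous recombination gene, and DCTN5, a dynactin subunit gene, had 24.3. TAF12, whose peak is described above with U11, had 24.1, and VAMP4, DPH1, SURF6 and RSRC1 followed at 23.7, 23.7, 23.3 and 23.2. Of these 10 peaks, HMGXB4 and TAF12 overlapped CUT&RUN peaks, both of them in both lists, and the other 8 overlapped none. HMGXB4 had 6.34 in the goat list and 4.53 in the mouse list. The lowest 2 coding promoter peaks were DCP1B, a decapping factor gene, at 5.71 and THOC6, a subunit gene of an mRNA export complex, at 5.05, of which THOC6 was in both lists.

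Beside TAF12 and POLDIP3, the coding promoter peaks in both lists were HMGXB4, KDM8 (19.7), HOXB5 (7.20) and THOC6 (5.05). Goat list peaks alone overlapped those of CCDC59 and METTL25, FLOT1, WDR13, AURKA and CSTF1, LSM5, TMBIM4 and TSHZ1, with ChIP-seq fold enrichments from 17.8 at CCDC59 down to 7.53 at TSHZ1 and goat values from 2.72 to 5.02. The mouse list alone held PEX13 and PUS10 (19.5) and HEATR5A (18.2). Counted by gene, 0.541% of 20136 coding genes had a ChIP-seq promoter peak, which is 109 genes. Of these, 26 (23.9%) also had a goat promoter peak, 14 (12.8%) a mouse promoter peak and 9 (8.26%) both, against 8.98, 2.93 and 1.22% of all coding genes. The 109 include genes such as WDR74 whose promoter peak lies at an snRNA gene.

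The 9-letter word occurred within 150 bp of the summit in 21 of 86 coding promoter peaks (24.4%, 16.6 to 34.5%). It occurred in no snRNA peak and in none of the 78 peaks of the other classes. In windows of the same length (250 bp before to 50 bp after the TSS), 0.556% of all 20136 coding promoters held it, and of coding promoter peaks in the goat and mouse lists 0.169% and 0.382% did. It was concentrated near the summit, as 24 of its 25 matches were centred within 50 bp of it. All 3 matches in goat list windows lay farther out.

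The 5-letter word occurred in 56 of the 86 windows (65.1%, 54.6 to 74.3%), against 7.61% of all coding promoters, 11.1% of goat list and 10.5% of mouse list coding promoter peaks. Of its 96 matches on either strand, 72 were centred within 50 bp of the summit. A site ATCGAT, which reads the same on both strands, counts as 2 of these matches. Counted by peak, 43 of the 86 (50.0%) had a match within 50 bp, against 4.39% of goat list coding promoter peaks. Of 22 snRNA peaks, 3 held the 5-letter word (13.6%). At least 1 of the 2 words was present in 63 of the 86 windows (73.3%, 63.1 to 81.5%), against 8.07% of all coding promoters. Both were present in 14, against 0.0993%. In 7 peaks the 5-letter word followed the 9-letter word within 20 bases on the same strand. The nearest such 5-letter word lay 3 or 4 bases past the 9-letter word, as in the sites shown above. At PLA2G15 a second 5-letter word followed farther on, within the same 20 bases.

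Because the words were found in these windows, their frequency in them, and the share of word-bearing promoters with a ChIP-seq peak, are descriptions that the choice of words raised. The 5-letter word was present in 9 of the 15 coding promoter peaks in a CUT&RUN list (interval 35.7 to 80.2%) and in 47 of the 71 in neither (66.2%, 54.6 to 76.1%), with intervals that overlap. The windows were rich in CG dinucleotides, with a median of 26.5 in the coding promoter peaks, 18 in all coding promoters and 13 in goat list coding promoter peaks, and the part of base composition in the word counts was not tested. Counted over genes, 15 of the 112 coding genes with the 9-letter word in the promoter window had a ChIP-seq promoter peak (13.4%, 8.29 to 20.9%), against 0.541% of all coding genes, and these include the promoters that supplied the word. A goat promoter peak was present at 12 of the 112 (10.7%, 6.24 to 17.8%), and 8.98% of all coding genes had one.

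**Figure D5:**
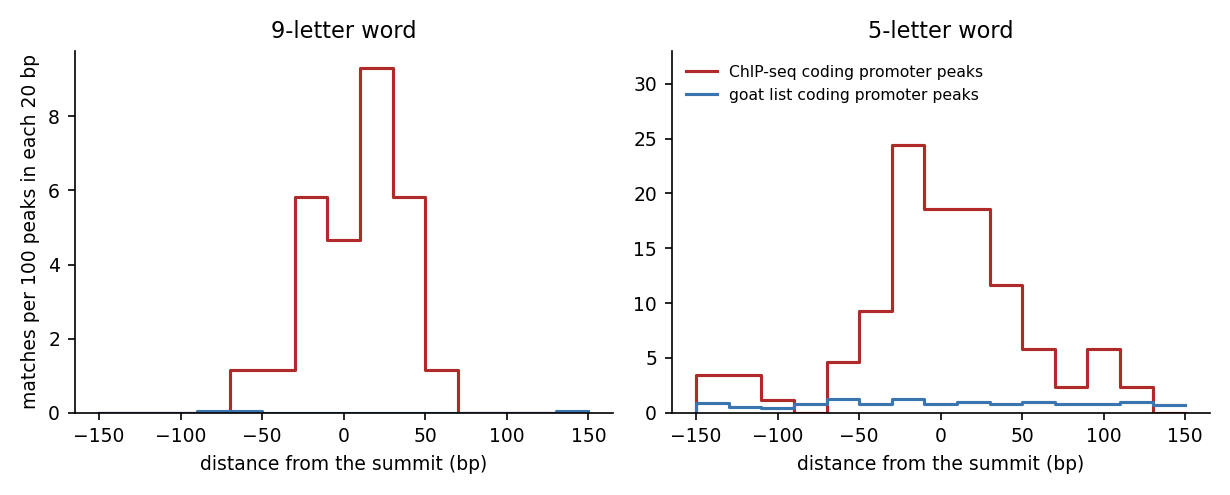
Matches of the 9-letter word (left) and the 5-letter word (right) per 100 peaks in 20 bp bins of distance from the summit (bp), for the 86 ChIP-seq coding promoter peaks and the 1776 goat list coding promoter peaks. Of the ChIP-seq matches, 24 of 25 and 72 of 96 lie within 50 bp of the summit, while the goat list line stays near 0 on the left and flat on the right.

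Among the most strongly enriched promoters, the 9-letter word lay in the windows of YARS1, HMGXB4, VAMP4, RBSN and KDM8, and the 5-letter word without it in those of FAN1, PALB2, TAF12, DPH1, SURF6, RSRC1 and MRPS23. PSMD3 and DYNC2I1 (22.9) held neither. Core letters of common promoter factors were counted in the same windows on both strands. An ETS core (CCGGAAG) was present in 16 of 86 (18.6%, against 11.8%), a YY1 core (AAGATGGC) in 10 (11.6%, against 3.02%) and an SP site (GGGGCGGGG) in 14 (16.3%, against 19.9%). The ZNF143 letters ACTACAATT were in none, against 0.382%, and AP-1 letters (TGANTCA) were in none, against 6.37%. CCAAT box letters (CCAATCA) were in 3.49% (against 8.14%), E-box letters (CACGTG) in 2.33% (against 8.33%), TATA letters (TATAAAA) in 1.16% (against 4.19%) and NRF1 letters (GCGCATGCG) in none (against 2.34%). The absence of letters says nothing more than that these letters were not in the windows.

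Histone peaks had their summits inside genes of the replication-dependent clusters, and 7 of 8 peaks overlapped the goat list. H1-2 and H1-4, linker histone genes, had fold enrichments of 11.1 and 10.9, and the other 6 peaks, at HIST1H4B, H1-3, H3C2, H2AC21, H3C1 and H4C4, ran from 6.46 to 4.37. All 8 summits lay 167 to 465 bp downstream of the gene start and before the gene end. Of the 8, 7 overlapped the goat list (87.5%, 52.9 to 97.8%) and none the mouse list (0 to 32.4%). Over the whole list the shares were 41.4 and 23.1%. The 23.1% lies inside the mouse interval, so the count of 0 does not set histone peaks apart. None of the 7 coding gene body peaks or the 4 other gene-end peaks overlapped the mouse list either. Goat fold enrichments there ran from 2.85 at HIST1H4B to 8.06 at H1-3, with a median of 4.83 against 4.32 over the goat list. In all, 10 of 66 clustered histone genes had a ChIP-seq peak within 500 bp, 39 had a goat peak and 12 a mouse peak. No share of all genes within 500 bp was computed to set beside these counts. Although no histone ChIP-seq peak overlapped the mouse list, 2 of the 10 genes had a goat and a mouse peak as well within 500 bp.

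The 3 peaks at other small RNA genes lay near AC009065.3 (10.6, at MLST8), MIR5580 (7.27) and MIR3193 (5.86, at ID1). Of these, MIR5580 was in both CUT&RUN lists and the other two in neither.

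The 11 coding gene-end peaks lay at 10 genes. At ID2, which encodes an inhibitor of basic helix-loop-helix factors, a peak of 1056 bp with a fold enrichment of 9.55 had its summit 749 bp past the gene end and was in both lists, and a second ID2 peak lay at the promoter (7.15). DDIT4, a stress-induced inhibitor of mTORC1 signalling, had a peak 1117 bp past its end (6.98) and another 479 bp before its end (4.99), and neither was in a CUT&RUN list. Summits lay 625 bp past MT2A, a metallothionein gene (5.71), and 640 bp past DKK1, a secreted WNT inhibitor gene (4.24), both in neither list. The summit at ARHGDIA (6.94) lay 164 bp before the gene end and that at CCN1 (7.30), which encodes a matricellular protein, 301 bp before it, and ARHGDIA was in both lists. The other coding gene-end peaks were assigned by an annotated transcript end of FBXL15 (9.38), LRRC25 (6.64), HOXB6 (5.94, in both lists) or CTC1 (5.73). Over the 11 coding gene-end peaks, 5 overlapped the goat list (45.5%, 21.3 to 72.0%) and 3 both lists (27.3%, 9.75 to 56.6%). These shares were near those of the whole list, 41.4 and 19.9%. Of the 5 in the goat list, ID2 had its summit past the gene end, and FBXL15, CCN1, ARHGDIA and HOXB6 had theirs before it. The shares are therefore not of peaks past gene ends alone.

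Some peaks past genes were too far out for the gene-end class. HSPA8, which encodes a constitutive HSP70 chaperone, had 4 peaks 2156, 2980, 4077 and 4743 bp past its end, with fold enrichments of 5.34, 5.68, 6.20 and 5.37. All 4 were in the goat list, and the one at 2980 bp was also in the mouse list. The peaks at 2156 and 2980 bp overlapped the same goat peak. ZFP36L1, an mRNA decay factor gene, had 1 peak 1685 bp past its end (5.18), also in the goat list. A further group was MIRLET7BHG, the host gene of let-7 microRNAs on chromosome 22, which held 10 peaks with fold enrichments from 4.35 to 9.08. Of these, 9 overlapped the goat list and 1 the mouse list, against 41.4 and 23.1% of the whole list. Some neighbouring peaks there overlapped the same goat peak, so the 9 are not separate overlaps. MALAT1, an abundant nuclear RNA gene, held 2.

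The lowest values of the list lay next to unsequenced parts of the assembly. The 5 lowest peaks, from 1.19 to 1.49, lay on chromosomes 1, 7, 6 and 19, and all 10 peaks with a fold enrichment under 2.5 were intergenic and within 915 kb of a stretch of 1000000 or more undetermined bases, the nearest at 0.274 kb. All 12 intergenic peaks within 1 Mb of such a stretch had fold enrichments of 1.19 to 4.06, while the other 11 intergenic peaks had 5.18 to 9.91. Of the 12, 5 overlapped the mouse list and 2 the goat list. Whether repeated sequence in these regions plays a part in the peaks was not tested, and the 32 bp at the summit occurred more than once in the genome in 7 peaks of the whole list.

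Other gene groups held few ChIP-seq peaks, as did coding genes as a whole, of which 0.541% had a ChIP-seq promoter peak. Of 86 cytosolic ribosomal protein genes, 1 (RPL22, 17.3) had a ChIP-seq peak (1.16%, 0.206 to 6.30%), against 66 with a goat peak within the same 500 bp. Of 78 mitochondrial ribosomal protein genes, 2 had one (MRPS23 at 22.3 and MRPS15 at 18.8, or 2.56%, 0.706 to 8.88%), against 14 with a goat peak. Of 33 snoRNA host genes, 1 had one (SNHG29, 4.99), against 20. The 0.541% counts peak centres in promoter windows, while the group counts take peaks within 500 bp of any part of a gene. No share of all genes was computed in the second way, so neither a shortfall nor an excess is read from these counts. None of 508 ZNF genes had a ChIP-seq peak (0 to 0.751%), and 70 had a goat peak. The goat counts of these groups also lack a share of all genes within 500 bp, so no group is called rich or poor in goat peaks. By promoter window, an unlike measure, 8.98% of all coding genes had a goat peak. The 3 Elongin genes had no peak in any of the lists. The ChIP-seq list is shorter than the goat list, so counts of peaks cannot be set against each other as levels.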

How the data were processed

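Elongin A peak lists of DLD1 cells were analysed as deposited. Before deposit, the authors used Bowtie2 (2.3.4.1) for alignment to hg19, Picard (1.88) for duplicate removal and MACS2 (2.1.1) for peak calling against input or IgG, which gave each peak a score, a fold enrichment (a linear ratio) and −log10 p-values and q-values in the deposited lists. The score and p-values were not used. No read counts were used, so the depth is unknown, and columns left out for want of a sample numbered 0.

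Peaks were annotated with GENCODE 44 lifted to GRCh37 by centre: promoter (from 1000 bp before a TSS to 100 bp after it), then gene end (from 100 bp before to 1000 bp after), then gene body. Small RNA and histone genes were taken within 500 bp. Overlap needed 1 bp. Sequence windows were 300 bp around summits and 250 bp before to 50 bp after a TSS, on both strands. snRNA and snoRNA relatives needed 75% identity over 80% of the query. Shares carry Wilson 95% intervals. No test was made, since each list is 1 comparison. Scripts used Python 3.11.15, pandas 2.3.3, scipy 1.17.1 and pysam 0.24.0 and were tested on simulated peaks.

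Members and lists (snRNA, snoRNA, histone, ribosomal protein, snoRNA host, ZNF, Elongin and RNA polymerase III genes) were chosen with earlier results of these data known. The 2 words, the 3′ box letters and the match thresholds were chosen after the windows were seen. Genes named by rule were all small RNA and histone peaks, the 10 highest and 5 lowest by fold enrichment, coding gene ends and peaks in both CUT&RUN lists (at most 10 in a class). No peak held the ZNF143 letters ACTACAATT. Others were named after their values were seen.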

Additional observations from a re-analysis of the deposited data

How the results depend on the processing

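Of 205 values recomputed under 14 alternatives, 198 stayed within 1.5 times the reported value. Within that limit, promoter peaks ranged from 100 to 132 (105 reported), peaks in both CUT&RUN lists from 29 to 37 (37 reported), snRNA peaks in both from 13 to 20 (17 reported) and coding promoter peaks in both from 4 to 6 (6 reported). The 7 that moved were single classes. Gene-end peaks by position fell from 35 to 11 with a promoter window of 500 bp either side. With basic transcripts only, coding gene-end peaks numbered 7 in place of 11 and coding gene body peaks 11 in place of 7. At a fold enrichment of at least 5, intergenic peaks numbered 11 in place of 23, by position and by class, and other gene body peaks 7 in place of 11. Coding promoter peaks in the goat list numbered 6 in place of 13 when shared bases had to make up 50% or more of the shorter peak. No paired analysis was possible because each list is a single list with no values per replicate and no result comes from a test, and leaving out a replicate could not be run for the same reason. Unknown depth and 1 library per ChIP-seq group limit every statement to these lists.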
